A study of Mus musculus with 27 samples.

Results

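The splice junctions of very long introns are described here in the whole fetal brain of mice. A splice junction is the place in a mature mRNA where the end of one exon was joined to the start of the next, and its span is the length of the intron that was cut out between them. Members were all distinct junctions of the splice table whose intron spans at least 50000 bases, counted once whatever the number of transcripts that hold them. They are 2622 of 55669 junctions. The others comprise 18331 junctions of under 1 kb, 26930 of 1 to 10 kb and 7786 of 10 to 50 kb. The rule used the span alone and no read count. Just inside the threshold lay junctions of Aopep (50006 bases, a mean of 5.74 reads per library), Rufy3 (50070 bases, 6.63 reads) and Igsf21 (50084 bases, 46.0 reads). Just outside lay those of Xxylt1 (49979 bases, 9.52 reads) and Desi2 (49954 bases, 46.6 reads).

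The 27 libraries came from mouse fetuses labelled female, of 3 strains, namely AKR/J, C57BL/6J, and Cav1-null (B6.Cg-Cav1tm1Mls/J). Each strain had 3 libraries at gestational day (d) 12, 3 at d15 and 3 at d17, where the plug day is day 1. The first 2 strains are inbred, and the Cav1-null strain is congenic to C57BL/6J and carries a targeted Cav1 allele in every cell, so that the mother carries it as well. Each strain was bred separately, no fetus received a treatment, and poly-A RNA of the dissected brain was sequenced. The interval from d12 to d15 is the early phase and that from d15 to d17 the late phase. Nothing in the labels says whether fetuses of a group came from separate litters, so p-values measure only the spread between these libraries.

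To excise an intron, the spliceosome joins a donor site, which nearly always begins the intron with GT, to an acceptor site, which ends it with AG. A very long intron must first be transcribed to its end, which takes RNA polymerase a long time, and only then can its acceptor be used. Genes with such introns are known to be common among those that neurons use for cell adhesion, synapses and ion channels, and topoisomerase I, the product of Top1, is known to help transcription through them.

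The following splice sites are of junctions on which the results below turn, either for their length, their reads or their change. Each line gives 10 exon and 20 intron bases at the donor, or 20 intron and 10 exon bases at the acceptor, in the direction of the gene, from GRCm39. Capitals mark the first 2 and last 2 bases of the intron.
Cntnap2 donor: tccacgttccGTaagtagctctctcctctc
Cntnap2 acceptor: cttcttattttttttttcAGaaaaatgtga
Fgf14 donor: aacccaactgGTaagcaaagcatgcatcat
Fgf14 acceptor: cccttgtatttgcctttcAGatccccagct
Ptprd donor: cacataactaGTaagtaatacttgcagatg
Ptprd acceptor: tttcccattttcttccccAGgggaaccttg
Macrod2 donor: ccgatcagtgGTaagtacttcagagttctt
Macrod2 acceptor: tttctgtggtttattcacAGgctttcccct
Gria2 donor: accaatgcttGTaagtaatgaatattcata
Gria2 acceptor: tctgtcttttcaatttctAGtctgctccca
Gpm6a donor: ttggatatggGTgagtgcagcggcttccca
Gpm6a acceptor: tttctgttgctcttctacAGggtgcttcga
Snrpn donor: agcccagaagGTaaggtagcagcgccagat
Snrpn acceptor: ttcttcatatatctaaccAGctgtgattgg

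These introns lie at chr6:45037321-45630927 (Cntnap2, plus strand, first intron), chr14:124373705-124913921 (Fgf14, minus strand), chr4:77550617-77843746 (Ptprd, minus strand), chr2:141357246-141566543 (Macrod2, plus strand) and chr3:80648506-80708951 (Gria2, minus strand). The other 2 lie at chr8:55232686-55490362 (Gpm6a, plus strand) and chr7:59721737-59781997 (Snrpn, minus strand). The donors of Cntnap2, Fgf14, Ptprd, Macrod2, Gria2 and Snrpn open with GTAAG, whereas that of Gpm6a opens with GTGAG.

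Introns of this length began with GTAAG more often than shorter ones. The motif opened 38.7% of the members and 26.5% of the junctions under 50 kb. By span the share was 20.4% under 1 kb, 28.6% from 1 to 10 kb, 33.3% from 10 to 50 kb, 38.1% from 50 to 100 kb, 39.3% from 100 to 200 kb and 40.3% from 200 kb on. Members also exceeded shorter junctions within first introns, with 35.5% of members against 21.8% of shorter junctions, and within introns that are first in no transcript, with 43.4% against 28.8%. At the third base of the intron, A stood in 67.6% of members and 57.9% of shorter junctions, and G stood at the fifth base in 85.4% against 78.9%. At the acceptor, pyrimidines made up on average 80.0% of the 18 bases before the final AG in members and 75.8% in shorter junctions, while the median was 77.8% in both. The pair of GT and AG itself was as frequent in both, at 98.7% and 98.6%.

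Members also differed in where they lie in genes, which can be read for annotated introns alone (2409 members and 51260 shorter junctions). The first intron of a transcript accounted for 50.7% of the annotated members and for 31.3% of the annotated shorter junctions. An intron within the 5′ UTR was found for 23.2% against 10.5%, and one between coding exons for 69.7% against 83.4%. The annotation is GENCODE vM39, which holds 91.9% of all members and 96.6% of all shorter junctions. A further 60 join 2 annotated ends that no transcript joins, 14 join annotated ends of different genes, 76 have 1 annotated end and 63 have none. Of those 63, 42 have GT and AG at their ends.

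The 2622 members fall into 1591 of 50 to 100 kb, 736 of 100 to 200 kb and 295 of 200 kb or more, with a median of 85900 bases and a maximum of 1548725. A host gene was found for 2538 of them, in all 1422 genes, of which 1359 are protein-coding and 57 are long non-coding RNA (lncRNA) genes. Several hosts were possible for 56 members and none for 28. Most hosts hold a single member (849 genes), 445 hold 2 or 3, and 128 hold 4 or more. The most are found in Ncald, which encodes a neuronal calcium sensor, and in the lncRNA gene Sox2ot, which overlaps Sox2, with 11 members each, followed by the lncRNA gene Mir99ahg with 10. The longest member of each spans 207628, 441128 and 140784 bases. Members often compete for a splice site, since 553 of them share 230 acceptors and 363 share 173 donors.

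Reads on these junctions were few. The mean over libraries had a median of 11.9 reads over the members and of 25.5 over shorter junctions, and 1441 members had a mean of at least 10. A read in all 27 libraries was found for 527 members (20.1%) and for 41.2% of shorter junctions. Because the authors removed junctions with multi-mapped reads or short overhangs, a 0 may stand for reads that were taken out. The paper does not say whether they were removed in each library separately. In 20.5% of the values of members with a host the table holds a 0, compared with 14.2% for shorter junctions and 26.5% for members of 200 kb or more. Where the gene's reads predicted at least 10 junction reads, 6809 of 40986 member values (16.6%) were still 0, against 11% for shorter junctions. The libraries held 2792888 to 4697191 junction reads and 26363697 to 39759702 gene reads, and 1603 to 2142 members had a read in a library.

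The labels were checked on Cav1, which lay at 0 to 0.551 CPM (a gene's reads scaled to library size) in Cav1-null libraries and at 6.36 to 43.0 CPM in the others. Neuron markers were present in every library. The summed level of 6 erythroid markers on d12 was 31800 to 126000 CPM in AKR/J, 978 to 4170 CPM in C57BL/6J and 3330 to 3760 CPM in Cav1-null mice, and the AKR/J libraries of d12 had the lowest sums of neuron markers (1280 to 1770 CPM, against 3250 to 6280 CPM elsewhere). The sum of 5 placenta markers was 24.0 to 517 CPM in them, against at most 65.4 CPM elsewhere. The 65.4 CPM was that of a C57BL/6J library of d12, a group with a range of 0.228 to 65.4 CPM. The sum of 5 yolk sac markers was 25.9 to 977 CPM, a range that overlaps the other groups (82.5 to 695 CPM). Within it Afp, the alpha-fetoprotein gene, lay at 10.9 to 707 CPM, against at most 1.73 CPM on d12 of the other strains. Apoa1, Apoa4 and Rbp4 were likewise highest in AKR/J on that day. Ttr went the other way, at 9.89 to 119 CPM in AKR/J, 81.3 to 238 CPM in C57BL/6J and 169 to 692 CPM in Cav1-null mice on d12. The AKR/J libraries of d12 enter every AKR/J result with d12 below, and the C57BL/6J library enters those of C57BL/6J with d12. The part of these markers in those results was not tested.

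The labelled sex was checked on Xist, the RNA of the inactive X chromosome, and on Kdm5d, Uty, Ddx3y and Eif2s3y of the Y chromosome. In 24 libraries Xist lay at 1850 to 6660 CPM and no Y gene above 0.197 CPM. The other 3 went against the label. Replicate 2 of d12 of Cav1-null mice had the Y genes at 62.4 to 139 CPM and Xist at 3.67 CPM, replicate 1 of d12 of AKR/J had both Y genes (4.03 to 12.0 CPM) and Xist (1880 CPM), and replicate 3 of d15 of AKR/J had Xist at 3.42 CPM and no read of a Y gene. The counts of calls without each of them are given with those of the other libraries below. The 8 members on the Y chromosome lie between bases 90739910 and 90852301, have no annotated end and no host, were read in 1 to 19 libraries, and entered no test.

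The very long introns took a larger share of all junction reads on d15 and d17 than on d12. In AKR/J the share was 1.05% ± 0.161 (SD, n = 3) on d12, 1.69% ± 0.04 on d15 and 1.95% ± 0.0737 on d17. In C57BL/6J it was 1.56% ± 0.218, 2.1% ± 0.0335 and 2.16% ± 0.0948. In Cav1-null mice it was 1.46% ± 0.0729, 1.82% ± 0.0463 and 2.18% ± 0.0878. The libraries of the 3 days did not overlap in AKR/J and in Cav1-null mice, whereas in C57BL/6J the range of d15 (2.08% to 2.14%) overlapped that of d17 (2.1% to 2.27%). The share on d17 was 1.86 times that on d12 in AKR/J, 1.38 times in C57BL/6J and 1.49 times in Cav1-null mice, and it stayed within 1.78 to 2.04, 1.29 to 1.48 and 1.45 to 1.53 times when each library was left out in turn. These are descriptions with no test. Relative to gene reads, the C57BL/6J libraries held 2450 to 2560 member reads per 1000000 gene reads on d15 and 2270 to 2620 on d17, so that no rise was seen between these days.

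Markers of cell types moved with this share. The sum of 5 radial glia markers, genes of the progenitors that line the ventricles, went from 905 to 1330 CPM on d12 to 316 to 418 CPM on d17 in AKR/J, from 1270 to 1680 to 285 to 551 CPM in C57BL/6J and from 903 to 1030 to 280 to 290 CPM in Cav1-null mice. The sum of 5 neuron markers went from 1280 to 1770 to 5340 to 5630 CPM, from 3250 to 4750 to 5230 to 6280 CPM and from 4190 to 4950 to 5540 to 6000 CPM. Their part in the shares and in the changes of host genes was not tested.

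The ratio was larger for the longest introns. Members of 200 kb or more took 0.049% ± 0.00717 of the junction reads on d12 and 0.157% ± 0.00228 on d17 in AKR/J, 0.0801% ± 0.0181 and 0.177% ± 0.0037 in C57BL/6J, and 0.0844% ± 0.00985 and 0.189% ± 0.0215 in Cav1-null mice (n = 3 each). Junctions of under 1 kb went the other way, from 46.4% to 43.2% in AKR/J, from 46.0% to 43.3% in C57BL/6J and from 45.4% to 43.2% in Cav1-null mice. RNA came from whole brains, so more cells of a type and more RNA per cell cannot be told apart in these shares.

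**Figure D1:**
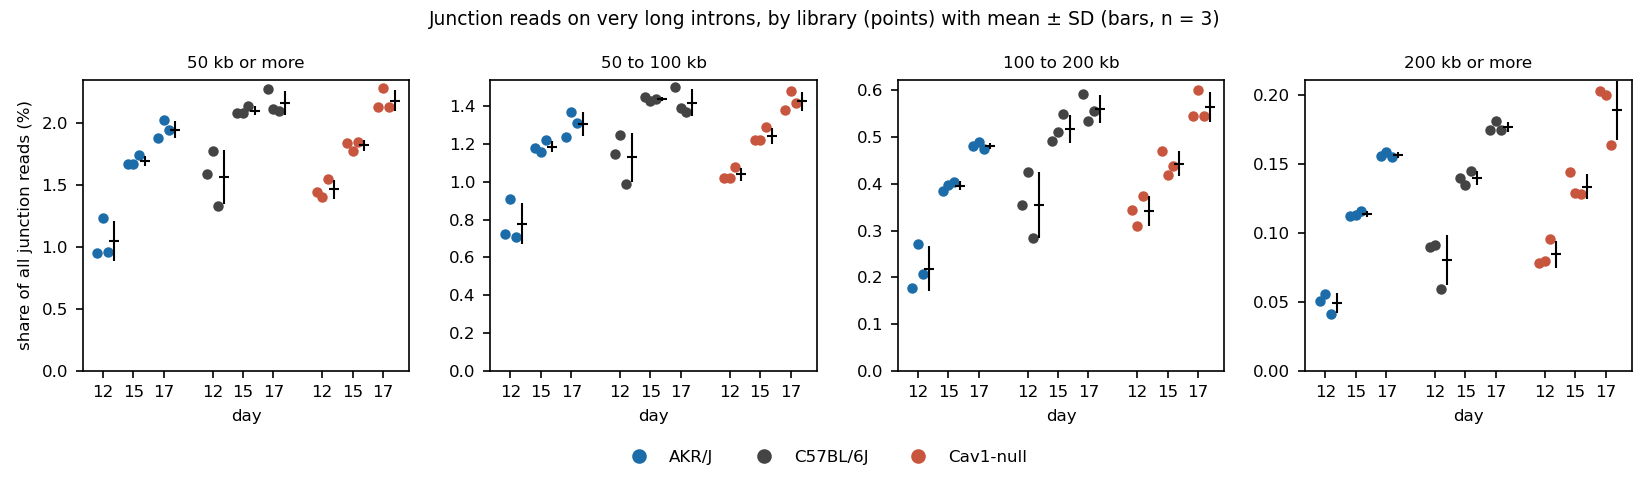
Share of all junction reads (%, vertical axis) that fell on junctions of each span class, by strain and day; points are libraries and bars give the mean ± SD of 3 libraries. The share on junctions of 50 kb or more was lowest in AKR/J on d12, at 0.948% to 1.23%.

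A share of junction reads can move because the host genes move or because the junction's use within its gene moves, and both were measured. The reads of the host genes came first. Genes were called with edgeR's quasi-likelihood test at a Benjamini-Hochberg adjusted p under 0.05 over all genes tested, and log2 fold changes are the later day over the earlier day. Early, 633 of 1398 host genes rose and 84 fell in AKR/J, where 28.9% of all genes tested were called (14.8% rose and 14.0% fell). In C57BL/6J 377 of 1397 rose and 52 fell, against 14.9% of all genes (7.08% rose and 7.8% fell). In Cav1-null mice 450 of 1401 rose and 172 fell, against 23.4% of all genes (11.6% rose and 11.8% fell). The median log2 fold change of host genes was 0.638, 0.45 and 0.152, and that of all genes 0.022, -0.038 and -0.009. Late, 392 of 1399 rose and 157 fell in AKR/J, against 22.1% of all genes (11.6% rose and 10.4% fell), 172 of 1400 rose and 123 fell in C57BL/6J, against 13.0% (7.46% rose and 5.58% fell), and 572 of 1404 rose and 117 fell in Cav1-null mice, against 27.3% (14.5% rose and 12.8% fell). Their medians were 0.093, -0.062 and 0.195, and those of all genes -0.006, 0.029 and -0.004. All genes tested include those with no junction in the splice table. In the C57BL/6J late phase these were 7782 of 19888, with a median of 0.278. Genes whose longest junction spans under 1 kb, 1 to 10 kb or 10 to 50 kb had medians of -0.043, -0.081 and -0.089 there. The hosts' median thus lay below that of all genes in this comparison, but within the range of these shorter classes.

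From 10 kb on, the share of genes that rose was higher the longer the longest junction of the gene. Below that there was no such order, with 4.72% at 1 to 10 kb and 4.76% under 1 kb in the C57BL/6J early phase, and 13.6% and 9.9% in that of AKR/J. In the AKR/J early phase, 9.9% of genes whose longest junction is under 1 kb rose, as did 23.8% of those with one of 10 to 50 kb, 35.4% at 50 to 100 kb, 53.0% at 100 to 200 kb and 68.8% (128 of 186) at 200 kb or more. Of these last, 6 fell. In C57BL/6J the early phase gave 4.76% under 1 kb and 47.3% (88 of 186, with 1 that fell) at 200 kb or more, and in Cav1-null mice 11.4% and 60.1% (113 of 188, with 5 that fell). The late phase had the same order at its ends, with 12.4% and 50.5% (94 of 186) in AKR/J and 13.0% and 58.4% (111 of 190) in Cav1-null mice. In the C57BL/6J late phase, 23.3% (44 of 189) rose at 200 kb or more, 13.7% at 100 to 200 kb and 8.83% at 50 to 100 kb, where 9.6% fell.

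**Figure D2:**
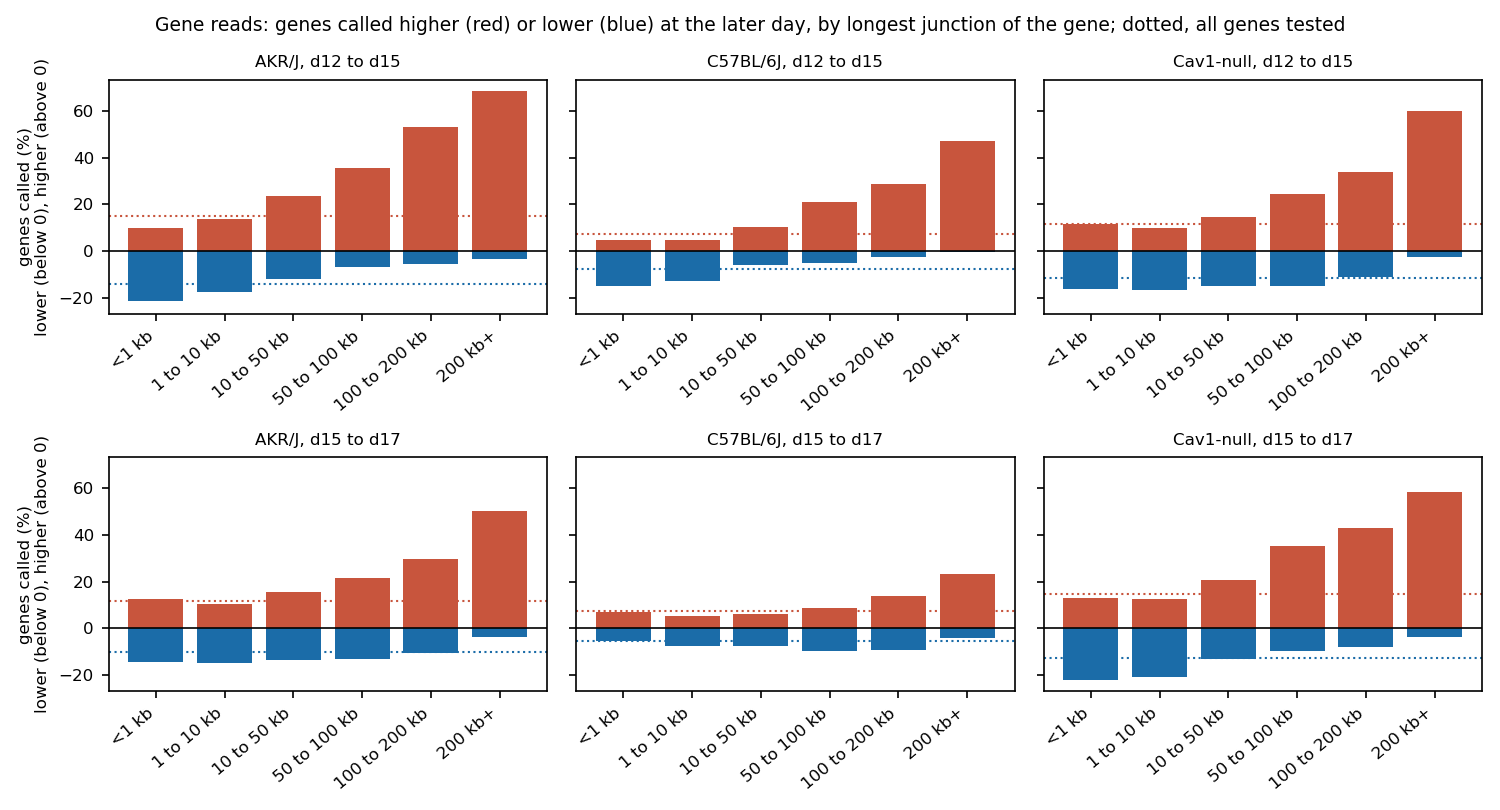
Percentage of tested genes called higher (red, above 0) or lower (blue, below 0) on the later day, by the span of the gene's longest junction, in 6 comparisons of days; dotted lines give all genes tested. The red bar at 200 kb or more reaches 68.8% in the AKR/J early phase and 23.3% in the C57BL/6J late phase.

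These counts of host genes depended on single libraries in several comparisons. Of the 429 calls in the C57BL/6J early phase, edgeR still made 1 without replicate 1 of d15 and 0 without replicate 2 or 3 (669 and 634 at an unadjusted p under 0.05), while 45 were made without replicate 1 of d12 and 771 without replicate 2 of d12. DESeq2 made 706. In the C57BL/6J late phase the count of 295 became 42, 32 and 107 without replicate 1, 2 or 3 of d15, 20 without replicate 3 of d17 and 709 without replicate 1 of d17. In AKR/J the early count of 717 became 574 without replicate 1 of d12 and 455 without replicate 3 of d15, which both went against the labelled sex, and the late count of 549 became 558 without replicate 3 of d15, and 285 without replicate 2 and 311 without replicate 3 of d17. In Cav1-null mice the early count of 622 became 534 without replicate 2 of d12, which went against the labelled sex, and 399, 379 and 413 without replicate 1, 2 or 3 of d15, and the late count of 689 ranged from 544 to 670.

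Of the host genes, Grm5, which encodes a metabotropic glutamate receptor, rose most in the AKR/J early phase, from 0.604 ± 0.109 to 43.2 ± 4.25 CPM (log2 fold change 5.68 ± 0.24, adjusted p = 0.000157). Its 3 members span up to 200613 bases. Caln1, a calcium-binding protein gene, rose most in the C57BL/6J early phase, from 5.99 ± 3.81 to 53.2 ± 9.94 CPM (3.18 ± 0.51, adjusted p = 0.0201). That call was lost without replicate 1 of d12 or any replicate of d15, with adjusted p up to 0.107. Glra3, a glycine receptor subunit gene, rose most in the Cav1-null late phase (1.57 ± 0.15, adjusted p = 9.45e-06). B230209E15Rik rose most in the AKR/J late phase (2.34 ± 0.28, adjusted p = 0.0015) and in the Cav1-null early phase (3.81 ± 0.21, adjusted p = 5.25e-05). In the C57BL/6J late phase it was A830018L16Rik (1.94 ± 0.18, adjusted p = 0.00375).

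The host genes that fell most in the comparisons of days follow. Hmga2, which encodes a chromatin protein of proliferating progenitors, fell from 44.9 ± 6.76 to 5.9 ± 0.672 CPM in the Cav1-null early phase (log2 fold change -2.94 ± 0.15, adjusted p = 4.45e-05) and in the AKR/J late phase (-2.01 ± 0.32, adjusted p = 0.00407). It also fell in the C57BL/6J early phase (-2.51 ± 0.34, adjusted p = 0.0162), a call lost without any 1 of the d15 libraries, with adjusted p up to 0.107. Gli3, a transcription factor of hedgehog signalling, fell in the C57BL/6J late phase from 72.9 ± 4.95 to 18 ± 5.35 CPM (-2.13 ± 0.25, adjusted p = 0.00548), and without replicate 3 of d17 its adjusted p was 0.05. Cenpp, a centromere protein gene, fell in the AKR/J early phase from 28.6 ± 9.67 to 6.54 ± 1.0 CPM (-2.7 ± 0.39, adjusted p = 0.00295). Gm29260 fell in the Cav1-null late phase from 33.6 ± 4.54 to 12.9 ± 3.83 CPM (-1.39 ± 0.17, adjusted p = 6.35e-05).

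By function, the called hosts that encode adhesion molecules, channels and synaptic proteins were nearly all higher on the later day. These counts are read beside the 7.08% to 14.8% of all genes, and the 12.3% to 45.3% of all hosts, that rose in the 6 comparisons. The lists also hold genes without a very long intron, and no difference between the 2 kinds of gene was tested. Of 58 cell adhesion hosts, which hold 176 members, 45 rose in the AKR/J early phase, 33 in that of C57BL/6J and 37 in that of Cav1-null mice, and 33, 16 and 41 rose in the late phase. Over all 71 listed adhesion genes, hosts or not, 52, 38 and 42 rose early and 37, 19 and 50 late. A fall was called for 1 host in the Cav1-null early phase and 1 in the C57BL/6J late phase. Their largest change in the AKR/J early phase was that of Ptprt, an adhesion phosphatase gene (3.58 ± 0.22). Of 49 hosts of ion channels and transmitter receptors, with 93 members, 43, 31 and 40 rose early and 39, 13 and 41 late, with the strains in the same order. Of all 68 listed genes of this kind, 58, 41 and 52 rose early and 50, 20 and 53 late.

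Signalling enzymes and synaptic scaffolds (58 hosts, 145 members) rose in 49, 28 and 37 cases in the early phase and 31, 13 and 39 in the late phase, with at most 3 that fell. The largest change was that of Unc13c, which primes synaptic vesicles, in the AKR/J early phase (4.69 ± 0.77). Guidance and growth factor genes (39 hosts, 82 members) rose in 24, 12 and 14 cases in the early phase, in which 4 fell in Cav1-null mice. In the late phase 9, 3 and 16 rose and 6, 6 and 5 fell, with Dcc, a netrin receptor gene, at -1.68 ± 0.27 in C57BL/6J.

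Transcription factors and RNA-binding proteins (58 hosts, 175 members) moved in both directions. In the early phase 24, 8 and 14 rose and 2, 2 and 14 fell, with the strains ordered as before. In the late phase 8, 3 and 11 rose and 18 fell in each strain. Of all genes tested, 11.6%, 7.46% and 14.5% rose late and 10.4%, 5.58% and 12.8% fell. Of all hosts, 28.0%, 12.3% and 40.7% rose late and 11.2%, 8.79% and 8.33% fell. Cytoskeletal and other genes (49 hosts, 141 members) rose in 28, 17 and 25 cases in the early phase and in 17, 9 and 25 cases in the late phase, with at most 3 that fell. All C57BL/6J counts of the early and the late phase share the dependence on single libraries given above.

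Genes listed for the transcription or splicing of long genes fell more often than they rose in each comparison but the AKR/J early phase. The list includes general splicing factors such as Snrpc, U2af1 and Sf1. Of 45 such genes, with the strains in the same order, 4, 0 and 3 rose and 4, 5 and 17 fell early, and 1, 0 and 1 rose and 15, 9 and 20 fell late. Of all genes tested, 14.0%, 7.8% and 11.8% fell early and 10.4%, 5.58% and 12.8% late, and the calls of both directions in the AKR/J and C57BL/6J early phases were no larger a share of the list than of all genes. Top1 fell late in AKR/J (-0.35 ± 0.1, adjusted p = 0.0421) and in C57BL/6J (-0.66 ± 0.17, adjusted p = 0.0471) and in Cav1-null mice both early (-0.46 ± 0.14, adjusted p = 0.0423) and late (-0.49 ± 0.07, adjusted p = 0.000186). Among called genes of the list, the largest change was that of Magoh in the AKR/J early phase (-2.72 ± 0.44). In every other comparison of days it was that of Top2a, with -1.72 ± 0.24 in the C57BL/6J late phase. Ptbp1, a splicing repressor of progenitors, fell by 1.06 on the log2 scale in the C57BL/6J late phase. Rbfox1, a splicing regulator of neurons and itself a host of very long introns, rose early in AKR/J (2.53 ± 0.28, adjusted p = 0.00128) and in Cav1-null mice (0.97 ± 0.11, adjusted p = 0.000905).

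The use of a junction within its gene was then compared as junction reads relative to gene reads. A junction was tested where each library compared held at least 1 of its reads and at least 10 reads of its gene, so that only part of the members could be tested. Few members were called by this measure. In AKR/J, 8 rose and 13 fell of 710 tested in the early phase, where 3.68% of all junctions were called (0.774% rose and 2.91% fell), and 7 rose and 5 fell of 957 in the late phase, against 0.758% of all (0.308% rose and 0.45% fell). In C57BL/6J, 6 rose and 6 fell of 997 in the early phase, against 0.856% of all (0.38% rose and 0.477% fell), and 1 rose and 3 fell of 1057 in the late phase, against 0.726% (0.361% rose and 0.365% fell). In Cav1-null mice, 6 rose and 3 fell of 899 in the early phase, against 1.24% of all (0.483% rose and 0.762% fell). In their late phase edgeR called 0 of 1001, with 88 at an unadjusted p under 0.05, against 0.216% of all junctions (0.072% rose and 0.144% fell), and the other settings called 0 to 2. Without the library constant the split moved to 14 that rose and 9 that fell early and 4 and 7 late in AKR/J, and to 3 and 4 in the Cav1-null early phase.

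The median log2 fold change of the members tested lay near that of all junctions. Early and then late, it was -0.04 and 0.01 in AKR/J, -0.003 and 0.016 in C57BL/6J, and 0.083 and 0.006 in Cav1-null mice, against -0.053 and 0.014, -0.016 and 0.031, and 0.012 and 0.0 for all junctions. For members of 200 kb or more it was -0.006 and 0.087, 0.125 and 0.131, and 0.178 and 0.15, over 36 to 88 junctions. In 413 to 572 genes that had tested junctions of both kinds, members and shorter junctions of the same gene differed by a median of -0.083 to 0.02 between days.

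Calls of single members were few and not firm. All 49 calls of the members named here were lost where a 0 was kept as a count, and 48 were lost where a 0 was treated as missing in limma. Of the 49, 16 were kept without each library in turn. They include members of Ptprd, Macrod2, Dpysl3 and Chchd3. The early and late phases share the d15 libraries.

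The counts of members called also moved when a library was left out. In AKR/J the early count of 21 became 13 without replicate 1 and 54 without replicate 2 of d12, and 5, 7 and 5 without replicate 1, 2 or 3 of d15. The late count of 12 became 4 and 5 without replicate 2 or 3 of d15, and 6 and 5 without replicate 2 or 3 of d17. In C57BL/6J the early count of 12 became 6, 21 and 2 without replicate 1, 2 or 3 of d12 and 7 without replicate 2 of d15, and the late count of 4 became 2 without any replicate of d15, 15 without replicate 1 and 1 without replicate 3 of d17. In Cav1-null mice the early count of 9 became 5 without replicate 2 of d12 or of d15.

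Ptprd encodes a receptor phosphatase that acts as an adhesion molecule of synapses. In the annotation, the Ptprd junctions named here lie only in transcripts without a coding sequence. The Ptprd junction of 293130 bases had 4.88, 3.22 and 2.47 reads per 1000 gene reads in the AKR/J libraries of d15 and 7.35, 6.46 and 8.33 on d17. The change was 1.13 ± 0.2 (adjusted p = 0.000307) and held without each library in turn (adjusted p up to 0.0165). In C57BL/6J it had 5.02, 3.99 and 6.41 on d15 and 8.54, 9.58 and 9.78 on d17 (1.01 ± 0.17, adjusted p = 0.00103), which also held (up to 0.0227). All libraries of d17 lay above those of d15. It was not called in the C57BL/6J early phase (0.83 ± 0.28) nor in Cav1-null mice, early or late (0.37 ± 0.2 and 0.37 ± 0.16). On d12 of AKR/J the values were 10, 2.02 and 0, so that this day had no common level.

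A second junction of Ptprd, of 212756 bases, had 2.37, 2.16 and 1.71 reads per 1000 on d12 and 6.08, 5.1 and 4.0 on d15 in Cav1-null mice (1.36 ± 0.26, adjusted p = 0.00053). It had 3.03, 2.75 and 1.19 on d15 and 5.33, 6.53 and 4.8 on d17 in AKR/J (1.31 ± 0.24, adjusted p = 0.000512). Both calls held without each library in turn, with adjusted p up to 0.0168 and 0.0293. It was not called in C57BL/6J, early or late (0.84 ± 0.29 and 0.46 ± 0.2), nor in the Cav1-null late phase (0.22 ± 0.18). The neighbouring junction of 215747 bases rose in the Cav1-null early phase (1.32 ± 0.28, adjusted p = 0.00191) and in the AKR/J late phase (1.19 ± 0.26, adjusted p = 0.00573), where the call was lost without replicate 3 of d15 or replicate 2 of d17 (adjusted p up to 0.147). The gene rose too, by 0.61 ± 0.09 in the AKR/J late phase. In that comparison the 4 tested members of Ptprd had a median of 1.16 relative to gene reads, and its 13 shorter junctions a median of 0.03, with 2 that rose.

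Cntnap2, a neurexin-like gene that clusters potassium channels on axons, has the longest annotated member with at least 10 reads on average, of 593607 bases. In C57BL/6J it had 1.9, 4.46 and 0.304 reads per 1000 gene reads on d12, 7.66, 9.69 and 10.2 on d15, and 17.2, 12.5 and 8.81 on d17. In Cav1-null mice the values were 0.921, 0.721 and 1.32, then 3.37, 1.67 and 2.81, then 8.02, 6.61 and 7.9. In AKR/J 0 reads were counted in the 3 libraries of d12, with 4992, 3343 and 1550 reads of the gene, and 13, 15 and 17 reads on d15. Every library of d15 was thus above every library of d12 in Cav1-null mice and in C57BL/6J, and in AKR/J the 0 counts may stand for removed reads, while the gene's reads were not called in any comparison of days (-0.57 to -0.13 on the log2 scale).

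Relative to gene reads the junction rose in the C57BL/6J early phase (1.93 ± 0.4, adjusted p = 0.00573), a call lost without replicate 3 of d12 or of d15 (adjusted p up to 0.0794). The other 3 tested members of Cntnap2 rose in the same comparison. They span 62465 (2.13 ± 0.41, adjusted p = 0.0025), 154681 (1.79 ± 0.4, adjusted p = 0.0143) and 74148 bases (1.72 ± 0.4, adjusted p = 0.0188). Without replicate 2 of d12 the first became 3.79 and the second 3.14. Leaving out replicate 3 of d12 ended all 3 calls. The second was also lost without replicate 1 of d12 or replicate 2 of d15, and the third without replicate 1 of d12 or replicate 1 or 3 of d15, with adjusted p up to 0.0578, 0.171 and 0.182. The longest member was not tested in the AKR/J early phase, and in that of Cav1-null mice it was below the filter on low counts. Without that filter it was not called there (1.52 ± 0.58, adjusted p = 0.267). No shorter junction of Cntnap2 was tested in C57BL/6J.

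Macrod2, which encodes an enzyme that removes ADP-ribose, showed the largest rise in the AKR/J early phase. Its junction of 209298 bases had 1.49, 0.512 and 1.87 reads per 1000 on d12 and 13.2, 12.7 and 13.6 on d15 (3.1 ± 0.54, adjusted p = 0.00138, up to 0.0185 without each library in turn). Those of 372365 and 198943 bases rose as well (2.12 ± 0.48, adjusted p = 0.0124, and 2.04 ± 0.54, adjusted p = 0.0332). Both calls were lost without replicate 3 of d12 or replicate 1 of d15, the first also without replicate 2 or 3 of d15 and the second without replicate 1 of d12 (adjusted p up to 0.0968 and 0.127). A shorter junction of the gene, of 38.9 kb, rose in the same comparison (2.41 ± 0.56), while another shorter one was not called (-0.53 ± 0.22). The gene itself fell (-0.73 ± 0.21, adjusted p = 0.0342). In C57BL/6J the 209298-base junction had 8.19, 10.8 and 6.84 on d12 and 23.1, 18.5 and 15.7 on d15, and in neither C57BL/6J nor Cav1-null mice was a member of Macrod2 called.

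Ptprn2, which encodes a protein of secretory vesicles, has a junction of 138725 bases with 11.5, 15.0 and 3.21 reads per 1000 on d12 and 29.1, 28.4 and 35.1 on d15 of C57BL/6J (1.5 ± 0.26, adjusted p = 0.000625, up to 0.0176 without each library in turn). Its junction of 94425 bases rose in the AKR/J early phase from 4.64, 3.44 and 2.69 to 19.5, 16.4 and 21.4 (2.23 ± 0.5, adjusted p = 0.0109), but not without replicate 1 or 3 of d15 (up to 0.0896). That of 141633 bases rose in the C57BL/6J early phase (1.0 ± 0.25, adjusted p = 0.0355) and in that of Cav1-null mice (0.97 ± 0.26, adjusted p = 0.0366), and that of 102120 bases in the latter (1.2 ± 0.28, adjusted p = 0.00627). These 3 calls were lost without 4, 5 and 3 of the 6 libraries in turn. Between strains, the junctions of 94425 and 141633 bases were lower in AKR/J than in C57BL/6J (-0.68 ± 0.21, adjusted p = 0.0386, and -0.73 ± 0.21, adjusted p = 0.0233), which was lost without 10 and 4 of the 18 libraries in turn. The gene was called in no comparison of days. Khdrbs2, a splicing regulator gene, has 2 neighbouring members that rose in the AKR/J early phase, of 89438 bases (1.53 ± 0.33, adjusted p = 0.00753) and 81288 bases (1.47 ± 0.38, adjusted p = 0.0317). Neither call held without replicate 1 of d12 or replicate 1 or 2 of d15 (up to 0.0638 and 0.165), the second changing to 0.96 without replicate 1 of d12, and the second was also lost without replicate 3 of d15.

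**Figure D3:**
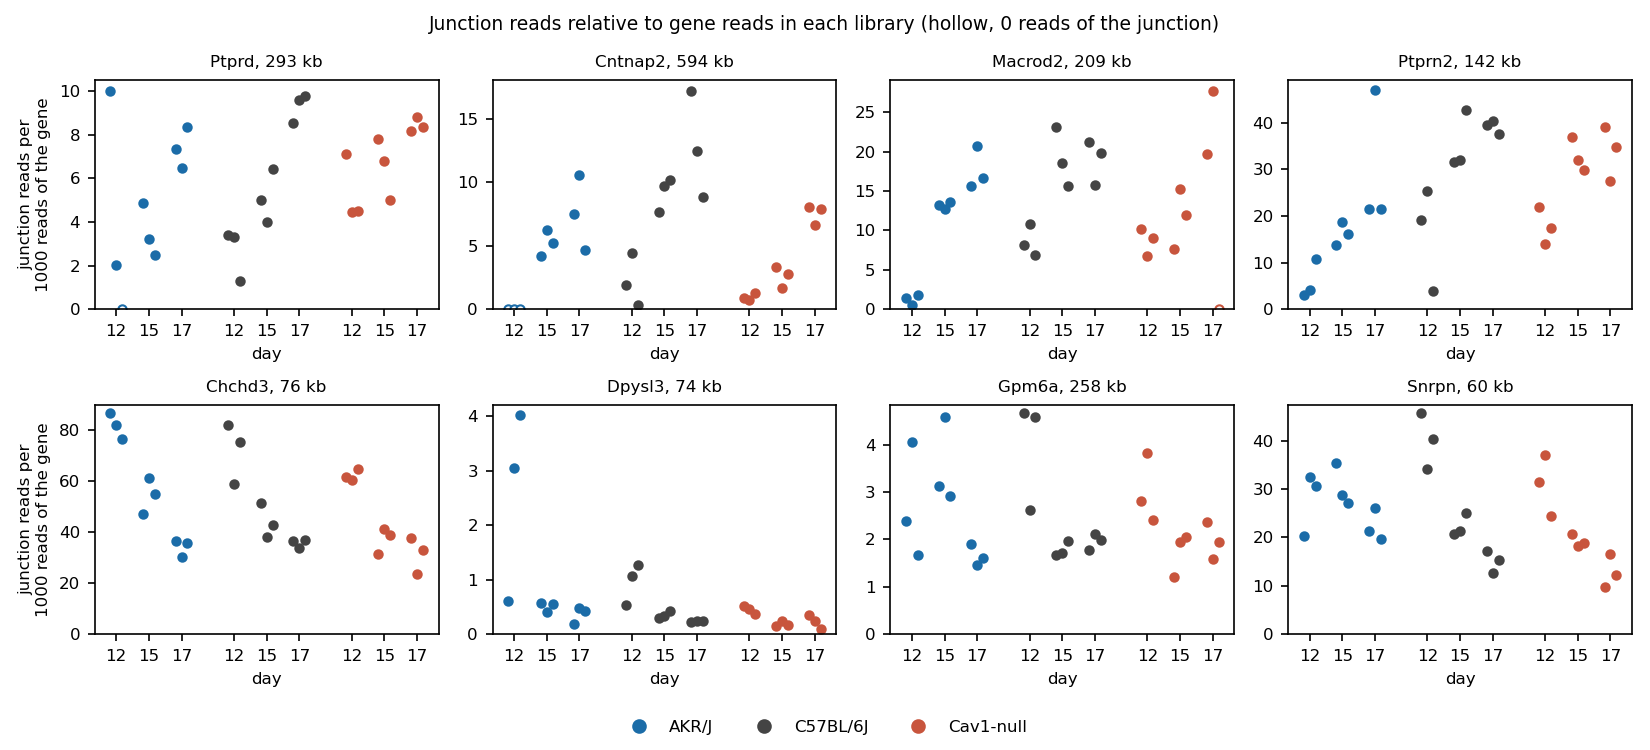
Junction reads per 1000 reads of the host gene (vertical axis) in each library for 8 members, by strain (blue, AKR/J; grey, C57BL/6J; red, Cav1-null) and day; hollow points mark 0 reads of the junction. The Chchd3 junction lies at 59.1 to 86.9 on d12 and at 23.7 to 37.7 on d17.

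Among members that fell, the annotated junction of 75825 bases in Chchd3, a gene for a protein of the mitochondrial inner membrane, was called most often. In AKR/J it had 86.9, 82.1 and 76.8 reads per 1000 on d12, 47.1, 61.3 and 55.2 on d15, and 36.6, 30.1 and 35.9 on d17. In C57BL/6J the values were 82.0, 59.1 and 75.6, then 51.3, 38.1 and 42.8, then 36.7, 34.0 and 36.9. In Cav1-null mice they were 61.8, 60.5 and 64.8, then 31.3, 41.3 and 38.9, then 37.7, 23.7 and 33.2. The libraries of d12 lay above those of d15 in each strain.

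The early fall of Chchd3 was -0.77 ± 0.14 in AKR/J (adjusted p = 0.00186), -0.78 ± 0.16 in C57BL/6J (adjusted p = 0.00606) and -0.68 ± 0.14 in Cav1-null mice (adjusted p = 0.00116). The first and last held without each library in turn (up to 0.037 and 0.0396), and that of C57BL/6J was lost without replicate 1 or 3 of d12 or replicate 2 of d15 (up to 0.086). The fall in the AKR/J late phase (-0.61 ± 0.15, adjusted p = 0.0301) was lost without replicate 2 or 3 of d15 or any replicate of d17 (up to 0.275). The gene's own reads fell in the early phases of AKR/J (-1.09 ± 0.26, adjusted p = 0.0156) and C57BL/6J (-0.53 ± 0.14, adjusted p = 0.0492) and in the Cav1-null late phase (-0.26 ± 0.08, adjusted p = 0.0271). Of these, the C57BL/6J call was lost without replicate 2 or 3 of d15, since no host gene was called in those fits.

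Dpysl3 encodes a growth cone protein that binds microtubules. Its junction of 74238 bases fell most in the AKR/J early phase, from 0.613, 3.05 and 4.01 to 0.577, 0.398 and 0.555 reads per 1000 (-2.52 ± 0.45, adjusted p = 0.00193, up to 0.0263 without each library in turn). The gene rose in this comparison by 2.14 ± 0.31. In C57BL/6J the junction fell from 0.538, 1.07 and 1.26 to 0.3, 0.328 and 0.426 (-1.46 ± 0.28, adjusted p = 0.00289), but without replicate 3 of d12 its adjusted p was 0.0643. Every library of d12 lay above those of d15 in both strains.

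Cadm2, an adhesion molecule gene, has a junction of 66878 bases with 22.3, 13.8 and 36.1 reads per 1000 on d12, 6.8, 3.67 and 9.28 on d15 and 2.23, 2.27 and 3.88 on d17 of C57BL/6J (early phase -1.75 ± 0.38, adjusted p = 0.0103). The call was lost without replicate 1 or 3 of d12 or replicate 2 of d15 (up to 0.154). Macf1, which links microtubules to actin, has one of 110100 bases that fell in the C57BL/6J late phase, from 1.77, 1.52 and 1.13 to 0.489, 0.584 and 0.203 (-1.58 ± 0.32, adjusted p = 0.00624), but not without replicate 1 of d15 or replicate 3 of d17 (up to 0.116). Klhl13, an adaptor of a ubiquitin ligase, has one of 53556 bases that fell in the Cav1-null early phase, from 11.4, 7.44 and 9.32 to 4.87, 3.04 and 4.68 (-1.08 ± 0.28, adjusted p = 0.0251), but not without replicate 1 or 3 of d12 or replicate 2 of d15 (up to 0.217).

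The first intron of Magi1, a scaffold gene of cell contacts, spans 96537 bases in the 5′ UTR. Its junction fell in the C57BL/6J early phase, from 6.64, 7.01 and 9.29 to 4.97, 2.64 and 3.25 reads per 1000 (-1.12 ± 0.26, adjusted p = 0.0161), and in the AKR/J late phase, from 3.81, 4.18 and 3.33 to 1.75, 0.338 and 1.11 (-1.73 ± 0.44, adjusted p = 0.0297). The first call was lost without replicate 3 of d12 or replicate 2 or 3 of d15 (up to 0.199), and the second without any library of d15 or replicate 2 or 3 of d17 (up to 0.242). In Rbfox1 the junction of 184285 bases fell in the AKR/J early phase (-1.44 ± 0.41, adjusted p = 0.0483) while the gene rose, and only leaving out replicate 2 of d12 kept that call (otherwise up to 0.237). Fam172a, whose members of 50574 and 63384 bases follow each other, had 0.87 ± 0.25 (adjusted p = 0.0484) for the first in the AKR/J early phase, and 0.59 ± 0.17 (adjusted p = 0.0496) and 0.71 ± 0.19 (adjusted p = 0.0423) in that of Cav1-null mice. Each of these 3 calls was lost in all but 1 of the fits that left out a library, which were those without replicate 3 of d12 for the first, replicate 1 of d12 for the second and replicate 1 of d15 for the third (otherwise up to 0.234, 0.395 and 0.368).

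Where a very long junction shares a splice site with another junction, the share of the site's reads that it takes compares the 2 without the gene's total. At the donor of the 293130-base junction of Ptprd, the competing junction spans 7153 bases. The long junction took 65.9%, 71.4% and 77.8% of the reads on d12, 83.8%, 77.6% and 89.8% on d15, and 97.2%, 95.7% and 91.3% on d17 in C57BL/6J. In Cav1-null mice it took 80.0%, 63.6% and 79.4%, then 89.2%, 85.4% and 76.5%, then 95.2%, 96.4% and 94.5%. In AKR/J it took 38.9% and 52.9% in replicates 1 and 2 of d12, with 0 reads in replicate 3, 75.8%, 79.1% and 75% on d15 and 88.7%, 89.3% and 97.1% on d17. On d17 it took more than in any library of an earlier day in each strain.

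At the acceptor of the 66878-base junction of Cadm2, the competitor spans 82692 bases. The shorter of these 2 very long introns took 57.1%, 39.6% and 66.7% of the site's reads on d12, 22.8%, 9.73% and 25.2% on d15, and 9.02%, 11.1% and 14.5% on d17 in C57BL/6J, and 40.8%, 28.6% and 44.7% on d12 and 8.93%, 12.4% and 13.6% on d17 in Cav1-null mice. In AKR/J it took 66.7% and 50% in the libraries of d12 with reads, and 23.9%, 35.2% and 12.6% on d17. The d12 libraries with reads lay above those of d17 in each strain. The 110100-base junction of Macf1, with a competitor of 129604 bases, took 38.7%, 34.6% and 27.1% on d15 and 20%, 13.1% and 6.33% on d17 in C57BL/6J, and 28.8%, 40.3% and 42.7% on d12, 16.7%, 16.3% and 24.7% on d15 and 11.5%, 12.0% and 15.1% on d17 in Cav1-null mice.

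At the acceptor of the 53556-base junction of Klhl13, the competitor spans 32641 bases. The long junction took 22.5%, 18.8% and 21.6% on d12, 11%, 5.86% and 11.9% on d15 and 5.46%, 7.44% and 6.3% on d17 in Cav1-null mice. In AKR/J it took 55.0%, 30.1% and 16.0%, then 17.5%, 18% and 17.1%, then 10%, 9.62% and 8.73%. For Dpysl3 the competitor spans 29398 bases, and in C57BL/6J the long junction took 2.0%, 4.04% and 4.75% on d12 and 0.933%, 1.15% and 1.06% on d17. In AKR/J it took 3.12%, 11% and 18.7% on d12, 2.22%, 1.68% and 2.61% on d15, and 0.867%, 1.95% and 2.06% on d17. These shares of a site come from the same reads as the fits above and were not tested.

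**Figure D4:**
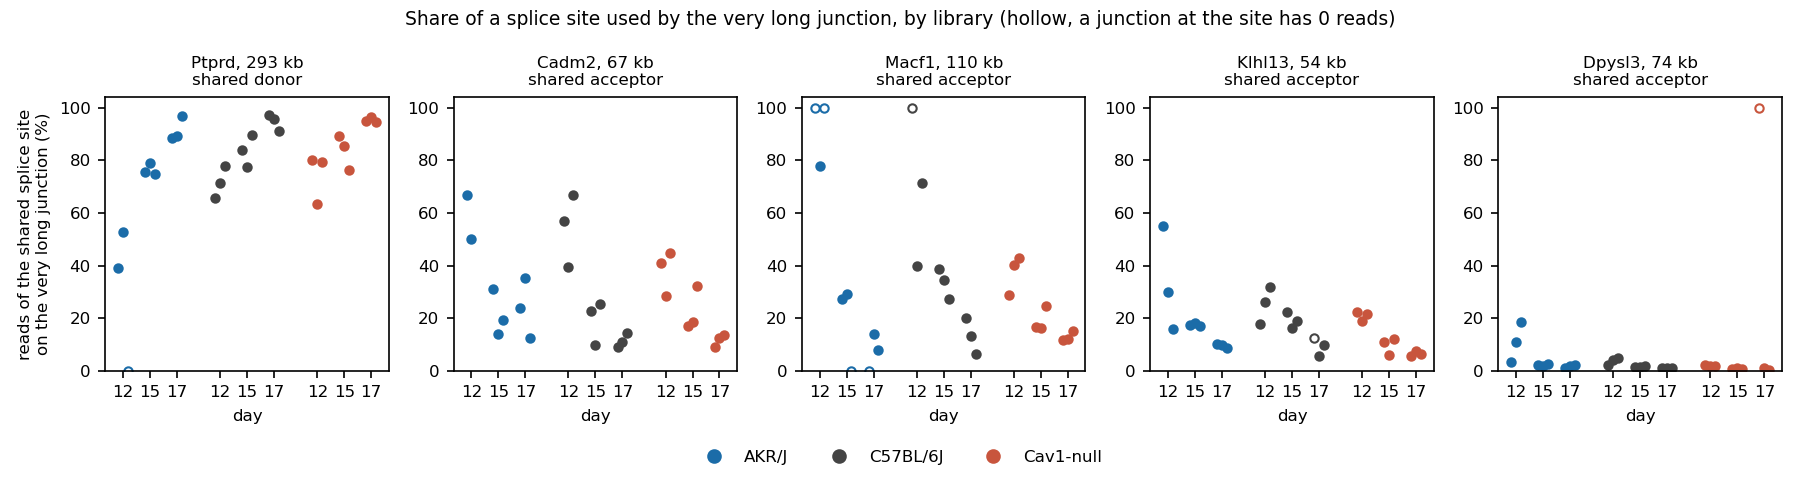
Share of the reads of a shared donor or acceptor (%, vertical axis) that the very long junction took in each library, for 5 genes, by strain (blue, AKR/J; grey, C57BL/6J; red, Cav1-null) and day; hollow points mark libraries in which a junction at the site has 0 reads. The Ptprd junction took 88.7% to 97.2% on d17.

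The 3 members outside the annotation with the most reads have 1 annotated end each. Snrpn, an imprinted gene of a small nuclear ribonucleoprotein, has one of 60261 bases with 45.6, 34.1 and 40.4 reads per 1000 on d12 and 20.6, 21.3 and 25 on d15 of C57BL/6J (-0.9 ± 0.17, adjusted p = 0.00221, up to 0.0479 without each library in turn). In AKR/J it had 20.2, 32.5 and 30.5 on d12 and 35.3, 28.8 and 27.1 on d15, which overlap. In the Cav1-null early phase it fell from 31.4, 37.0 and 24.3 to 20.7, 18.2 and 18.8 (-0.63 ± 0.17, adjusted p = 0.0347), a call lost in 5 of the 6 fits that left out a library, each except the one without replicate 3 of d12 (up to 0.406).

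Gpm6a, a gene of a neuronal membrane glycoprotein, has one of 257677 bases that fell in the C57BL/6J early phase, from 4.67, 2.61 and 4.59 to 1.66, 1.71 and 1.96 (-1.19 ± 0.23, adjusted p = 0.00304), and in the AKR/J late phase, from 3.12, 4.59 and 2.91 to 1.91, 1.45 and 1.6 (-1.03 ± 0.21, adjusted p = 0.00235). The first call was lost without replicate 1 or 3 of d12 (up to 0.0698) and the second without replicate 2 of d15 (0.111). In the Cav1-null early phase its adjusted p was 0.0505. The donor of this junction, at base 55232686, lies outside the annotated gene, which starts at base 55407719. The member of G3bp2, an RNA-binding protein gene, spans 64273 bases, had 61.2 reads on average and was called in no comparison. Its donor, at base 92285410, likewise lies outside the annotated gene, which ends at base 92231728.

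The 5 members with the most reads were called in none of the comparisons of days in which they were tested, which were 6 for Gria2 and Bmerb1, 5 for Sh3bgrl, 4 for Gnao1 and 2 for Ssbp3. Sh3bgrl (54277 bases) had a mean of 862 reads and 57.5 to 80.6 per 1000 gene reads in 26 libraries, with a 0 in replicate 1 of d12 of Cav1-null mice. Gria2, an AMPA receptor subunit gene, had 636 reads (60446 bases, 17.9 to 27.7 per 1000), and Gnao1, which encodes a G protein subunit of neurons, had 514 reads (84537 bases, 20.2 to 47.5 per 1000 apart from a 0 in replicate 2 of d15 of AKR/J). Next came Bmerb1 (62489 bases, 396 reads) and Ssbp3 (93949 bases, 336 reads), the latter with 0 reads in 3 libraries.

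Of the longest annotated members with at least 10 reads on average, that of Fgf14, whose product regulates sodium channels, was read in all 27 libraries. It spans 540217 bases and had 22.3 to 80.3 reads per 1000, with no call. Those of Pcdh9, a protocadherin gene (558816 bases, 13 reads on average), and Fhit, which encodes a nucleotide hydrolase (551319 bases, 11.1 reads), are longer and follow that of Cntnap2 in length. The member of Fam155a (536971 bases) was read in 12 of 27 libraries, and in 1 of the 9 Cav1-null libraries, at 33.4 to 99.1 per 1000 where it was read. A 0 there may stand for removed reads.

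Strains were compared over the 3 days together, with day as a term in the model. Both comparisons share the C57BL/6J libraries. Between AKR/J and C57BL/6J, 11 members were higher and 6 lower in AKR/J of 586 tested, against 6.29% of all junctions (4.41% higher and 1.89% lower). Between Cav1-null and C57BL/6J mice, 808 members were tested, of which 6 were higher and 1 lower in the former, against 2.93% of all junctions (1.51% higher and 1.42% lower). The members' shares called were thus below that of all junctions in both. The libraries of the strains overlapped for each of the 17 and 7 calls. Without the library constant, which sets the median ratio of junction to gene reads equal between libraries, the splits were 2 higher and 23 lower, and 0 higher and 21 lower. The constant shifts all junctions of a library alike, so the balance of higher and lower calls depends on it, whereas no named junction changed sign without it.

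Here too single libraries moved the counts. Of the 3 libraries that went against the labelled sex, leaving out replicate 1 of d12 or replicate 3 of d15 of AKR/J gave 18 and 13 calls between AKR/J and C57BL/6J, and leaving out replicate 2 of d12 of Cav1-null mice gave 8 between Cav1-null and C57BL/6J mice. The 17 calls between AKR/J and C57BL/6J became 7 without replicate 2 of d12 and 11 without replicate 2 or 3 of d15 or replicate 1 of d17 of C57BL/6J. The 7 calls between Cav1-null and C57BL/6J mice became 4 without replicate 2 of d12, 12 without replicate 3 of d12 and 20 without replicate 2 of d17 of C57BL/6J, and 13 without replicate 2 of d17 of Cav1-null mice.

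In AKR/J the junction of Rbfox1 was higher (0.91 ± 0.18, adjusted p = 0.00133, up to 0.00573 without each library in turn), as was that of Dpysl3 (1.09 ± 0.25, adjusted p = 0.00451, up to 0.0203). The latter call was lost with d12 left out, an alternative chosen after seeing the data. Rab3c, which encodes a vesicle GTPase, has one of 96724 bases that was higher in AKR/J (0.31 ± 0.08, adjusted p = 0.0142, up to 0.0394) and in Cav1-null mice (0.24 ± 0.06, adjusted p = 0.017) than in C57BL/6J. The second of these calls was lost without replicate 2 of d12 of C57BL/6J or replicate 2 of d15 of Cav1-null mice (up to 0.0542) and with d12 left out (0.052), and both were lost without the library constant (0.16 and 0.1 on the log2 scale, adjusted p = 0.192 and 0.325).

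In Cav1-null mice the junction of Cntnap2 of 593607 bases was lower than in C57BL/6J (-1.08 ± 0.24, adjusted p = 0.00315, up to 0.0151 without each library in turn). Their libraries reached 1.32 reads per 1000 on d12, 3.37 on d15 and 8.02 on d17, against 4.46, 10.2 and 17.2 in C57BL/6J. On d12 a C57BL/6J library lay below every Cav1-null library, whereas on d15 and d17 every C57BL/6J library lay above every Cav1-null library. The junction of Bmerb1 was higher in Cav1-null mice (0.23 ± 0.05, adjusted p = 0.00665, up to 0.0304), a call lost without the library constant (0.1, adjusted p = 0.253) and with d12 left out.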

How the data were processed

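Each of the 27 libraries holds poly-A RNA of a fetal brain, with 3 for each strain and day. Per the labels, the authors used FastQC, cutadapt, fastp, STAR, edgeR and bedtools with the build GRCm39, with no versions. The counts deposited by the authors are whole reads per gene and whole reads per splice junction from multi-sample 2-pass mapping with STAR, without normalization. Junctions with multi-mapped reads, overhangs that were too short, or few reads in all samples had been left out, so that a 0 can stand for removed reads. The tool that counted gene reads is not given in the sources used here. Columns of no sample were not found.

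The 130424 rows of the splice table were reduced to 55669 distinct junctions, and junctions were matched to introns of GENCODE vM39, on the same build. Junction counts were tested in R 4.3.3 with the quasi-likelihood test of edgeR 4.0.16, with the log of the gene's reads and a library constant (the median log ratio of junction to gene reads) as offset. Junctions needed a read in every library compared, at least 10 reads of the host gene in each library, and filterByExpr. Host genes were tested after filterByExpr and TMM scaling. Benjamini-Hochberg adjusted p under 0.05 over all features tested made a call, and SE is the size of the log2 fold change divided by the root of F. Strain comparisons used 18 libraries with strain and day as terms. Replicate numbers were not used as pairs, since the labels give no shared animal. In no comparison did every pair of libraries of the same number have a correlation over 0.1.

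The members and the gene lists were chosen with earlier results of these data known. Named members were the 5 longest annotated ones with a mean of at least 10 reads, the 5 with the most reads, the 3 not annotated with the most reads, and in each comparison the largest rise and fall without overlap. The 3 genes with the most members and, for each comparison of days, the host genes with the largest rise and fall at a log2 CPM of at least 3 were named as well. Members called in several comparisons or in genes with several called members (those of Chchd3, Snrpn, Gpm6a, Ptprn2, Khdrbs2, Fam172a, Rab3c and Rbfox1, and further ones of Ptprd, Cntnap2 and Macrod2) and the genes Top1, Ptbp1 and Rbfox1 were named after their values were seen.

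Alternatives were DESeq2 1.42.0, limma 3.58.1 with a 0 as missing, a 0 kept as a count, no filter, at least 10 reads, no library constant, a model of all 27 libraries, each library left out in turn and a block by replicate number. Scripts were tested on simulated data. Tables were handled in Python 3.11.15 with pandas 2.3.3 and numpy 2.4.6, and plots drawn with matplotlib 3.10.9.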

Additional observations from a re-analysis of the deposited data

How the results depend on the processing

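No named value changed sign under the alternatives run, and 143 of the counts and ratios recomputed stayed near their value while 89 moved. The cause was not tested unless the fit itself had fewer junctions or samples. Members called in AKR/J, then C57BL/6J, then Cav1-null mice, each early before late, numbered 21, 12, 12, 4, 9 and 0 and the comparisons of strains gave 17 and 7. With a 0 kept as a count, the first became 3, the second 6, the fourth 7, the fifth 2, the sixth 1, and those of strains 2 and 0 (111 at an unadjusted p under 0.05). With a 0 as missing, limma called 0 in the first 5 (163 to 235 at an unadjusted p under 0.05), and 8 and 1 between strains. With at least 10 reads in every library the counts were 13, 6 and 2 in the early phases of AKR/J and C57BL/6J and the Cav1-null late phase, and 7 between AKR/J and C57BL/6J. DESeq2 called 4 in the AKR/J late phase, 7 in the C57BL/6J early phase and 3 in that of Cav1-null mice. A model of all 27 libraries called 34, 2, 4, 0 (33 at an unadjusted p under 0.05) and 1 in the first 5 comparisons. No filter on low counts gave 2 in the Cav1-null late phase, and no library constant gave 21 between Cav1-null and C57BL/6J mice.

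Leaving out each library in turn gave 5 to 54, 4 to 10, 2 to 21, 1 to 15, 5 to 10 and 0 to 2 members called in the comparisons of days, and 7 to 25 and 4 to 20 in those of strains. For host genes it gave 455 to 858 and 285 to 565 in AKR/J, 0 to 771 and 20 to 709 in C57BL/6J, and 379 to 830 and 544 to 670 in Cav1-null mice. The fits without a library leave 2 in a group. For the ratio of the share on d17 to that on d12 it gave 1.78 to 2.04, 1.29 to 1.48 and 1.45 to 1.53. At a minimum span of 100 kb the ratios were 2.39, 1.7 and 1.76, and that of Cav1-null mice was 1.37 over junctions read in all 27 libraries and 1.38 with gene reads as denominator.

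Of the host genes, DESeq2 called 706 early and 458 late in C57BL/6J (227 that rose and 231 that fell). The model of all 27 libraries called 321 in the AKR/J late phase, and 407 and 100 in the early and late phases of Cav1-null mice, where Glra3 (adjusted p = 0.0874) and Gm29260 (0.155) were no longer called. Correlations between libraries of the same replicate number were -0.215 to 0.186 in the comparisons of days, -0.501 to 0.432 between AKR/J and C57BL/6J and -0.336 to 0.266 between Cav1-null and C57BL/6J mice, and in no comparison were all pairs over 0.1. With a replicate block, edgeR called 0 host genes in the C57BL/6J early phase (769 at an unadjusted p under 0.05), and 7 and 1 members in the late phases of C57BL/6J and Cav1-null mice. With d12 left out, the strain comparisons called 14 and 8 members. The number of junction reads limits what could be tested, since members without a read in every library were left out.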
